A study of Mus musculus with 12 samples.

Results

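The genes described here encode proteins of the cytosolic ribosome in mouse cortical cultures. They were taken by symbol: 95 rows of the deposited count table began with the Rpl or Rps pattern, and 23 pseudogene symbols, 8 Rps6k kinase symbols and 1 Rps19bp symbol were left out. This gave 63 genes of 12145. Of these, 33 encode proteins of the large subunit, 24 proteins of the small subunit and 3 the stalk proteins (Rplp0, Rplp1 and Rplp2). The other 3 are paralogues by their symbol (Rpl22l1, Rpl7l1 and Rps27l). All 63 passed the filter on low counts. Rps6 and Rpl11 were not analysed here. They and others, such as Rpl9, Rpl13, Rps13 and Rps23, were not among the 63, so the set is incomplete. The lowest summed count of a gene in the set, over all libraries used, was 106. Why other symbols are absent was not tested.

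The cells were dissociated from the cortex of C57BL6 mouse embryos (E16.5-E17.5), and all groups were infected with lentivirus on day 6 in vitro at a total multiplicity of infection of 2. OGD-miR-29 cultures carried the miR-29 virus (miR-29c in the labels) and on day 14 went through oxygen-glucose deprivation (OGD), a model of ischaemia, for 3 h followed by 4 h of recovery. OGD-empty cultures had the same deprivation after an empty lentivirus. Sham-miR-29 and sham-empty cultures carried the miR-29 and the empty virus and had a change of buffer in normal oxygen. Each group had 3 cultures dissected on distinct days, but the deposited sham-empty replicate 3 column did not hold read counts, so sham-empty had n = 2 and 11 libraries were used. The labels do not say which cells of the culture took up the virus.

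Ribosomal proteins are made in matched amounts and assembled with ribosomal RNA in the nucleolus. Their mRNAs belong to the 5′ terminal oligopyrimidine (TOP) class, which starts with a C followed by a run of C and T and whose translation is controlled by mTOR through LARP1. Their genes are short, and many carry a small nucleolar RNA (snoRNA) in an intron. miR-29 is a microRNA family abundant in mature neurons and known for its collagen, DNA methyltransferase and BH3-only targets, none of which is a ribosomal protein gene. The virus of the labels carries miR-29c, whose 3p arm in RefSeq (mouse, GRCm38.p6, chr1:195037600-195037621, plus strand) is shown with its seed, bases 2 to 8, in capitals:
miR-29c-3p: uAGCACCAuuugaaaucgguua
The match to this seed, TGGTGCT, was found in the annotated 3′ UTR of 5 of the 63 genes, which were Rpl22, Rpl5, Rps15a, Rps20 and Rps3. It was found in 1672 of the 10132 tested genes with a 3′ UTR. The 3′ UTRs were shorter in the ribosomal protein genes, with a median of 142 nt against 1273 nt, and a match is a description of the letters, not of a target site.

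All 63 genes were found in the GENCODE M21 annotation (GRCm38), on 18 chromosomes. Their annotated span ran from 828 to 31449 nt with a median of 3431 nt, against 22958 nt for the 11953 genes of the table with an annotation. Depth was low: counts outside the 37 mitochondrial rows summed to 231500 to 1362484 per library, those rows held 57.6% to 84.1% of each library's summed counts, and single ribosomal protein genes had 1 to 1236 counts. The table can count a read for more than 1 gene. An annotated gene inside the gene or within 10000 nt downstream held at least 0.5 of its count for 40 of the 63 genes, and 25 genes held a snoRNA. Their counts can hold reads of these neighbours, and reads of processed pseudogene copies cannot be assigned from the table. In bulk RNA, fewer cells of a type and less RNA per cell cannot be told apart.

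Ribosomal protein RNA took the smallest share of the counts in OGD-empty cultures. The 63 genes summed to 0.551%, 0.549% and 0.665% of the counts outside the mitochondrial rows in OGD-miR-29 replicates 1 to 3, and to 0.276%, 0.231% and 0.300% in OGD-empty replicates 1 to 3. In sham cultures the shares were 0.508%, 0.377% and 0.519% with miR-29 and 0.563% and 0.522% with the empty virus. Every OGD-empty library was below every other library, and the OGD-miR-29 libraries were above the sham-miR-29 libraries and overlapped the sham-empty ones. The group means were 0.588% ± 0.0665 in OGD-miR-29, 0.269% ± 0.0349 in OGD-empty and 0.468% ± 0.0793 in sham-miR-29 (SD, n = 3 each), and 0.543% ± 0.0293 in sham-empty (SD, n = 2). Rps3 alone made up 10.5% to 22.9% of these counts, and without it the shares were 0.446%, 0.462% and 0.517% in OGD-miR-29, 0.243%, 0.190% and 0.268% in OGD-empty, 0.408%, 0.306% and 0.437% in sham-miR-29, and 0.434% and 0.410% in sham-empty, in the same order of groups. Taken singly, 61 of the 63 genes had their lowest group mean in OGD-empty cultures, 1 in OGD-miR-29 and 1 in sham-miR-29. These shares are a description with no test.

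**Figure D1:**
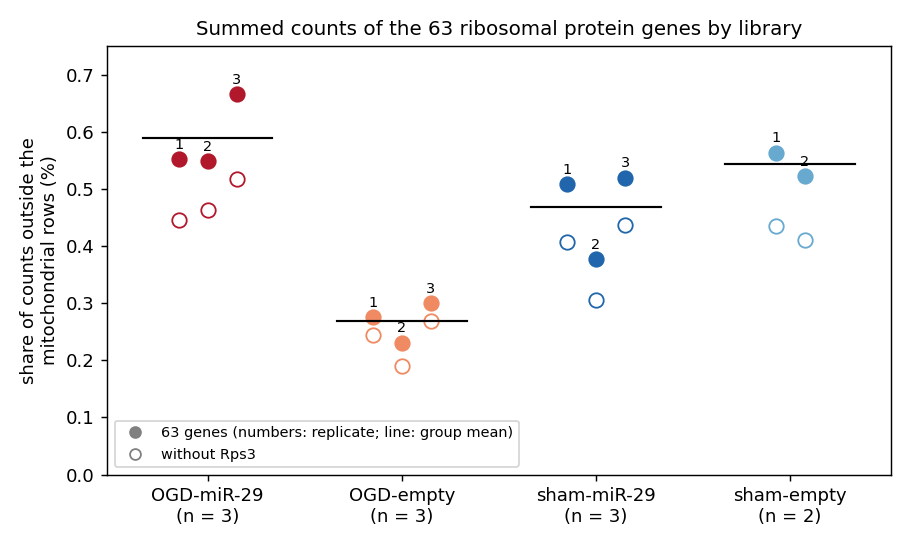
Share of the counts outside the mitochondrial rows (%, y axis) held by the 63 ribosomal protein genes in each of the 11 libraries, by group; filled points are all 63 genes, open points leave out Rps3, small numbers are replicates and lines are group means. The 3 OGD-empty libraries lie between 0.231% and 0.300%, below the other 8.

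**Figure D2:**
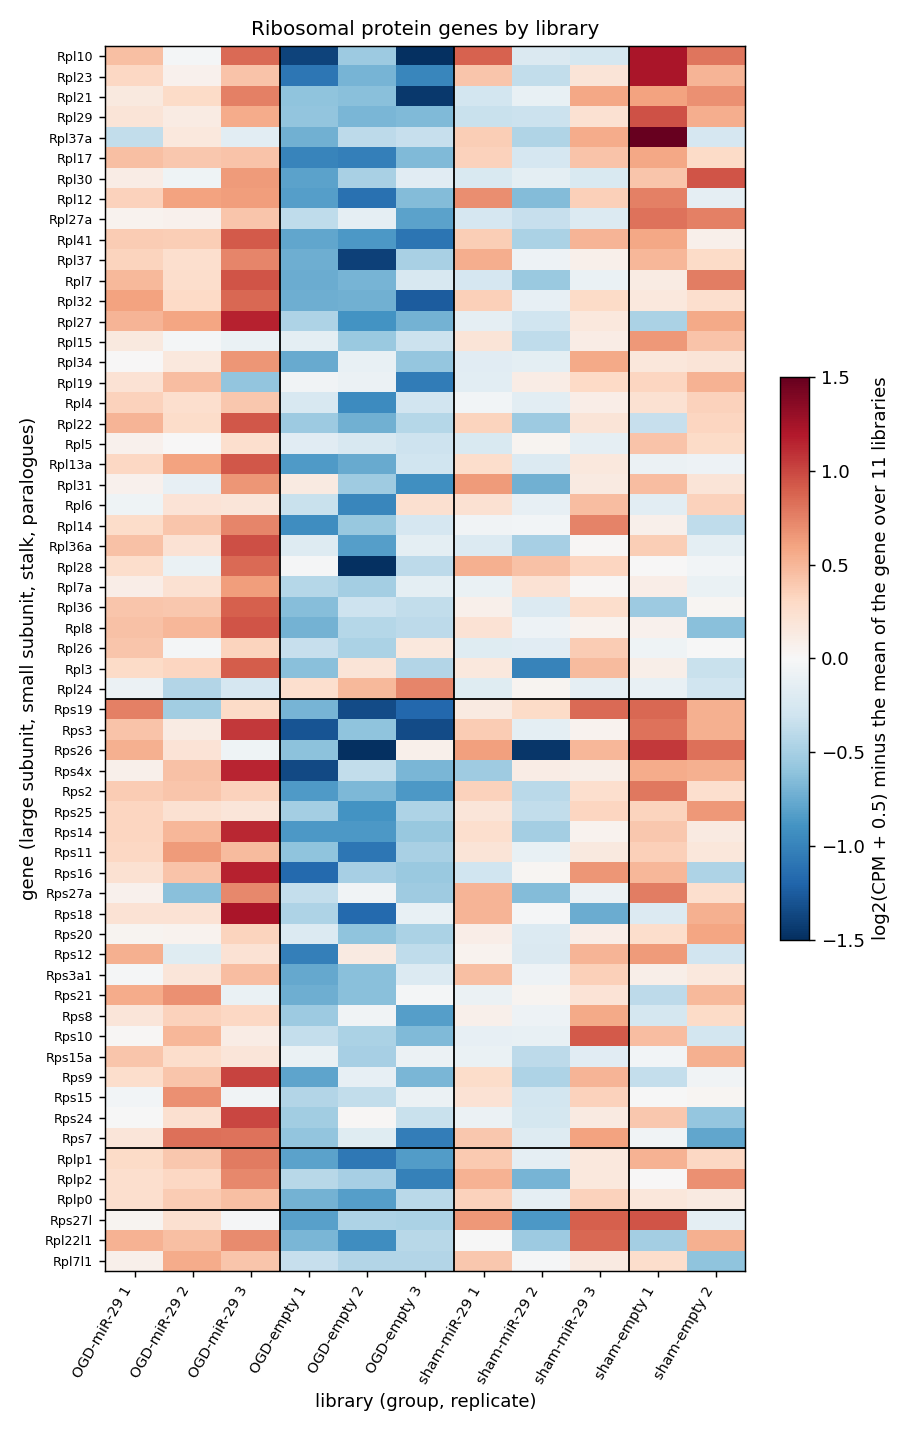
log2(CPM + 0.5) of 60 of the genes, each minus its mean over the 11 libraries (colour), with genes in rows by subunit class, ordered by fold change in OGD-empty against sham-empty cultures, and libraries in columns. The 3 OGD-empty columns are blue for most genes, and Rpl24, the last large-subunit row, is red there.

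Levels differed between the genes by more than they did between groups. Per kilobase of annotated exon, over the 11 libraries, Rplp1 had the highest mean level at 50.5 CPM (counts scaled to library size) per kb, followed by Rps3 at 42.5, Rpl36 at 40.5 and Rpl8 at 28.1 CPM per kb. Rps19 at 0.752, Rpl21 at 1.23 and Rpl34 at 1.37 CPM per kb were the lowest. The exon length used joins every annotated isoform, so these levels also carry that choice of length.

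Ribosomal protein RNA was lower after OGD in cultures with the empty virus. Of the 63 genes 16 fell and 0 rose in OGD-empty against sham-empty cultures (adjusted p under 0.05, edgeR's quasi-likelihood test with Benjamini-Hochberg adjustment over 12119 genes), where 5.09% of all genes tested were called, 3.61% lower and 1.48% higher. The median log2 fold change of the 63 genes was -0.87, against 0.02 over all genes, and 62 of 63 values were below 0. The groups did not overlap in CPM, with every OGD-empty library lower, for 44 of the 63 genes, where the background was 21.6%, and were higher with no overlap for 1, Rpl24, where it was 22.0%. Large-subunit genes gave 10 of the 16 calls, small-subunit genes 5 and the stalk 1. They included Rpl7, Rpl10, Rpl17, Rpl23, Rpl27a, Rpl29, Rpl30, Rpl32, Rpl37, Rpl41, Rplp1, Rps2, Rps3, Rps4x and Rps14.

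Among large-subunit genes, Rpl10, whose protein joins late in assembly and completes the peptidyl transferase centre, had the largest decrease. It had 4.32, 8.13 and 3.22 CPM in OGD-empty libraries, against 28.8 and 21.4 CPM in sham-empty libraries, so the groups were apart by more than the spread within either. Its log2 fold change was -2.27 ± 0.43 (SE; adjusted p = 0.00736, edgeR). Rpl23, a protein at the interface of the subunits that can also bind MDM2, had 5.40, 7.23 and 5.90 CPM in OGD-empty and 28.8 and 17.4 CPM in sham-empty libraries, a log2 fold change of -1.89 ± 0.33 (edgeR adjusted p = 0.00426). Rpl29 had 3.40, 3.16 and 3.22 CPM in OGD-empty and 10.9 and 8.10 CPM in sham-empty libraries, a log2 fold change of -1.48 ± 0.39 (edgeR adjusted p = 0.0351). In all 3 genes each OGD-empty library was below both sham-empty libraries. Counts of Rpl10 can be shared in part with Dnase1l1, Taz and Snora70, which held 1.12, 0.99 and 0.87 of its count. Those of Rpl23 can be shared with Snora21 (0.94) and those of Rpl29 with Abhd14a (0.79).

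Rps3, a small-subunit protein at the mRNA entry channel that is also known as a DNA repair endonuclease, had the most counts of the set. It had 68.4, 111 and 66.5 CPM in OGD-empty libraries, against 297 and 245 CPM in sham-empty libraries, with no overlap. The log2 fold change was -1.73 ± 0.28 (edgeR adjusted p = 0.00293). In the authors' deposited table for OGD-empty against sham-empty, Rps3 had -0.77, with a false discovery rate of 0.679. The cause of this difference was not tested. The snoRNA Snord15a, inside Rps3, and Klhl35, next to it, held 1.00 and 0.98 of the Rps3 count, so these values can be those of the whole locus. Rps4x, the X-linked form of a small-subunit protein, had 3.86, 8.13 and 6.43 CPM in OGD-empty and 15.9 and 15.6 CPM in sham-empty libraries (-1.48 ± 0.40, edgeR adjusted p = 0.0395). No neighbour held 0.5 of its count. Rps2, on the same side of the small subunit as Rps3, had 25.8, 29.4 and 25.7 CPM in OGD-empty and 81.6 and 56.1 CPM in sham-empty libraries (-1.34 ± 0.25, edgeR adjusted p = 0.00474), and Snora64 held 0.51 of its count.

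The 3 stalk genes encode the acidic proteins that recruit the translation factors to the large subunit. Rplp1, alone among them, fell, with 13.1, 10.8 and 12.9 CPM in OGD-empty and 33.8 and 28.9 CPM in sham-empty libraries (log2 fold change -1.33 ± 0.26, edgeR adjusted p = 0.00727). Rplp0 had a log2 fold change of -0.81 ± 0.24 (edgeR adjusted p = 0.0548) and Rplp2 of -1.08 ± 0.44 (edgeR adjusted p = 0.14), neither of them called. Whether the 3 differ from each other was not tested. Rps14, a small-subunit protein known from the 5q- syndrome, fell with a log2 fold change of -1.07 ± 0.31 (edgeR adjusted p = 0.0483), and Ndst1 held 0.96 of its count. Rps19, the protein mutated most often in Diamond-Blackfan anaemia, had a log2 fold change of -1.87 ± 0.58 and was not called (edgeR adjusted p = 0.0631). It had 1.70, 0.903 and 1.07 CPM in OGD-empty and 5.97 and 4.63 CPM in sham-empty libraries, and few counts. Rpl5, which binds the 5S RNA and MDM2, had a log2 fold change of -0.60 ± 0.26, Rpl13a, a part of the interferon-gamma-activated inhibitor of translation in human myeloid cells, of -0.58 ± 0.29, and Rps27a, a fusion of ubiquitin and a ribosomal protein, of -0.89 ± 0.55. None of these was called. Rps7 (-0.12 ± 0.44) and Rpl3 (-0.18 ± 0.49) were nearest to 0.

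Rpl24, a large-subunit protein that makes a bridge to the small subunit, was the 1 gene with a value above 0. It had 20.5, 24.4 and 28.9 CPM in OGD-empty libraries, against 15.9 and 13.9 CPM in sham-empty libraries, and the groups did not overlap. Its log2 fold change of 0.71 ± 0.28 did not pass the test (edgeR adjusted p = 0.128). The paralogues had values below 0 and were not called: Rpl22l1 had a log2 fold change of -1.06 ± 0.62 and its partner Rpl22 of -0.64 ± 0.32, Rpl7l1 had -0.22 ± 0.39, and Rps27l, a p53 target in human cells, had -1.16 ± 0.59. The partner Rpl7 fell, by 1.15 ± 0.32 on the log2 scale (edgeR adjusted p = 0.0435).

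These calls rested on 2 sham-empty libraries. Without sham-empty replicate 1 none of the 63 genes was called, without sham-empty replicate 2 the calls were 3 (Rpl23, Rps2 and Rps3), and without OGD-empty replicate 3 they were 9, while the median log2 fold change stayed between -0.95 and -0.80 over the 11 fits that each left out 1 library. Of these 11 fits, the call of Rps14 was made in 2, that of Rpl27a in 3, that of Rpl7 in 5, those of Rps4x and Rpl32 in 6 and that of Rpl29 in 7, so these calls also rested on libraries of other groups. In the authors' deposited table for OGD-empty against sham-empty, 61 of the 63 log2 fold changes were below 0 with a median of -0.92, and 1 gene, Rpl10 (-2.22), had a false discovery rate under 0.05, at 0.0489, among 6 of all 12145 genes. The sources used here do not say whether the sham-empty replicate 3 column entered the authors' deposited table.

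**Figure D3:**
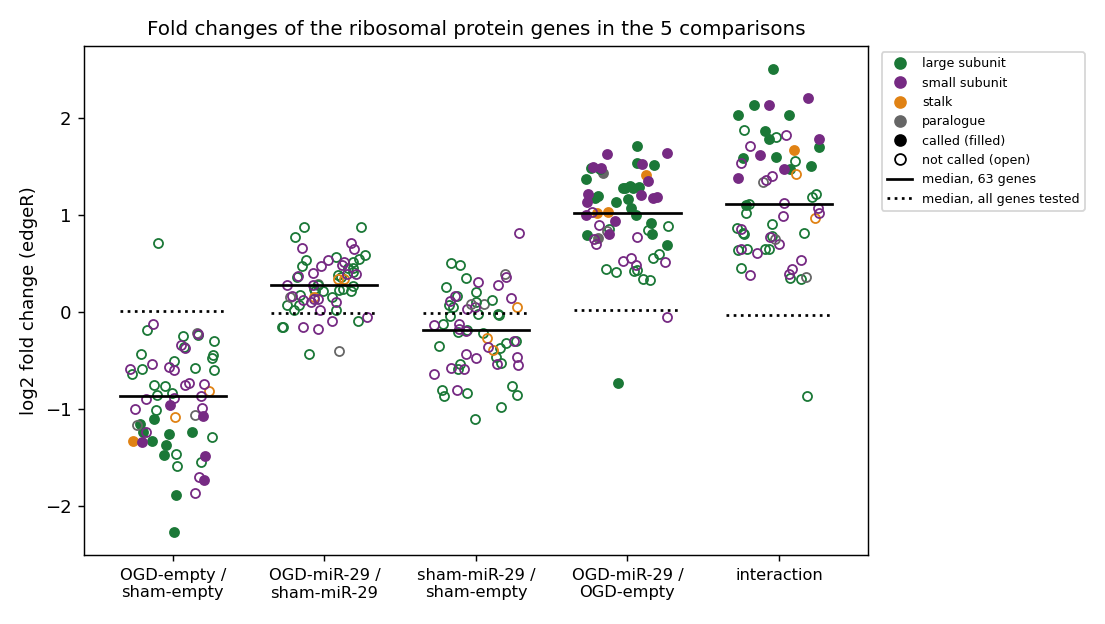
Log2 fold change (edgeR, y axis) of each of the 63 genes in the 4 comparisons between groups and in the interaction (x axis), coloured by class; filled points were called at an adjusted p under 0.05, solid lines are the medians of the 63 genes and dotted lines those of all genes tested. The medians are -0.87, 0.28, -0.18, 1.03 and 1.12 from left to right, and the dotted lines lie near 0.

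After OGD, ribosomal protein RNA was higher with miR-29 than with the empty virus. Of the 63 genes 40 rose and 1 fell in OGD-miR-29 against OGD-empty cultures (edgeR, adjusted p under 0.05), where 37.1% of all genes tested were called, 17.2% higher and 19.9% lower. The median log2 fold change was 1.03, against 0.02 over all genes, and 61 of the 63 values were above 0. For 50 genes every OGD-miR-29 library was above every OGD-empty library, where the background was 25.0%, and for 1, Rpl24, every one was below, where it was 25.2%. The calls spread over both subunits: 21 large-subunit genes rose and 1 fell, 14 of the 24 small-subunit genes rose, and so did all 3 stalk genes and 2 of the 3 paralogues.

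Rpl10 had 16.7, 11.8 and 22.1 CPM in OGD-miR-29 libraries, all above the OGD-empty values given above, and rose by 1.71 ± 0.38 on the log2 scale (edgeR adjusted p = 0.0028). Rpl27 had 4.41, 4.73 and 7.21 CPM in OGD-miR-29 and 2.01, 1.35 and 1.61 CPM in OGD-empty libraries (1.54 ± 0.39, edgeR adjusted p = 0.00563). Rpl12, a stalk-base protein, had 5.88, 7.09 and 7.21 CPM in OGD-miR-29 and 2.32, 1.81 and 2.68 CPM in OGD-empty libraries (1.52 ± 0.39, edgeR adjusted p = 0.00541). The groups were apart in each of the 3. Ifi35 held 4.99 times the count of Rpl27 and Lrsam1 1.64 times that of Rpl12, so the values of these genes are uncertain.

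Among small-subunit genes, Rps16 rose by 1.65 ± 0.45 on the log2 scale (edgeR adjusted p = 0.00808), with 4.04, 4.73 and 8.17 CPM in OGD-miR-29 and 1.24, 2.26 and 2.14 CPM in OGD-empty libraries. Rps3 rose by 1.64 ± 0.26 (edgeR adjusted p = 0.000542), with 227, 184 and 351 CPM in OGD-miR-29 libraries. Rps19 had 5.51, 1.97 and 3.85 CPM in OGD-miR-29 libraries and rose by 1.53 ± 0.46 (edgeR adjusted p = 0.0138). In each of these the lowest OGD-miR-29 library was above the highest OGD-empty library. Rps14 had 26.5, 29.9 and 46.6 CPM in OGD-miR-29 and 11.3, 11.3 and 13.9 CPM in OGD-empty libraries (1.49 ± 0.26, edgeR adjusted p = 0.000603). Rpl13a rose by 1.29 ± 0.23 (edgeR adjusted p = 0.000693), although Mir150 next to it held 1.28 times its count. Rps27a (0.49 ± 0.43) and Rpl5 (0.35 ± 0.21) were not called.

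All 3 stalk genes rose. Rplp1 had 28.5, 31.1 and 40.4 CPM in OGD-miR-29 libraries, against the 10.8 to 13.1 CPM of OGD-empty libraries, and no other annotated gene lies in it or within 10000 nt downstream (1.41 ± 0.22, edgeR adjusted p = 0.000542). Rplp0 had 36.0, 39.4 and 41.3 CPM in OGD-miR-29 and 18.2, 16.7 and 22.5 CPM in OGD-empty libraries (1.03 ± 0.21, edgeR adjusted p = 0.00119). Rplp2 rose by 1.04 ± 0.34 (edgeR adjusted p = 0.0213). Of the paralogues and their partners, Rpl22l1 rose by 1.44 ± 0.44 beside Rpl22 at 1.18 ± 0.26, and Rpl7l1 by 0.76 ± 0.27 beside Rpl7 at 1.20 ± 0.27. Their edgeR adjusted p values were 0.0152 for Rpl22l1, 0.00206 for Rpl22, 0.034 for Rpl7l1 and 0.00225 for Rpl7. Rps27l was not called (0.84 ± 0.45, edgeR adjusted p = 0.149). Gm26904 held 12.8 times the count of Rpl7l1.

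Rpl24 went against the set. It had 16.2, 12.6 and 14.4 CPM in OGD-miR-29 libraries, against 20.5, 24.4 and 28.9 CPM in OGD-empty libraries, and fell by 0.73 ± 0.22 on the log2 scale (edgeR adjusted p = 0.0134). Its sham libraries had 15.2, 17.7 and 15.7 CPM with miR-29 and 15.9 and 13.9 CPM with the empty virus. The OGD-empty group stood above each of the other 3 groups with no overlap. The call was lost without OGD-miR-29 replicate 2 and without OGD-empty replicate 3. Rpl15 (0.34 ± 0.22) was among the values nearest to 0 in this comparison. Leaving out 1 library at a time gave 29 to 44 calls among the 63 genes, and the call of Rpl7l1 was made in 6 of these 11 fits.

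**Figure D4:**
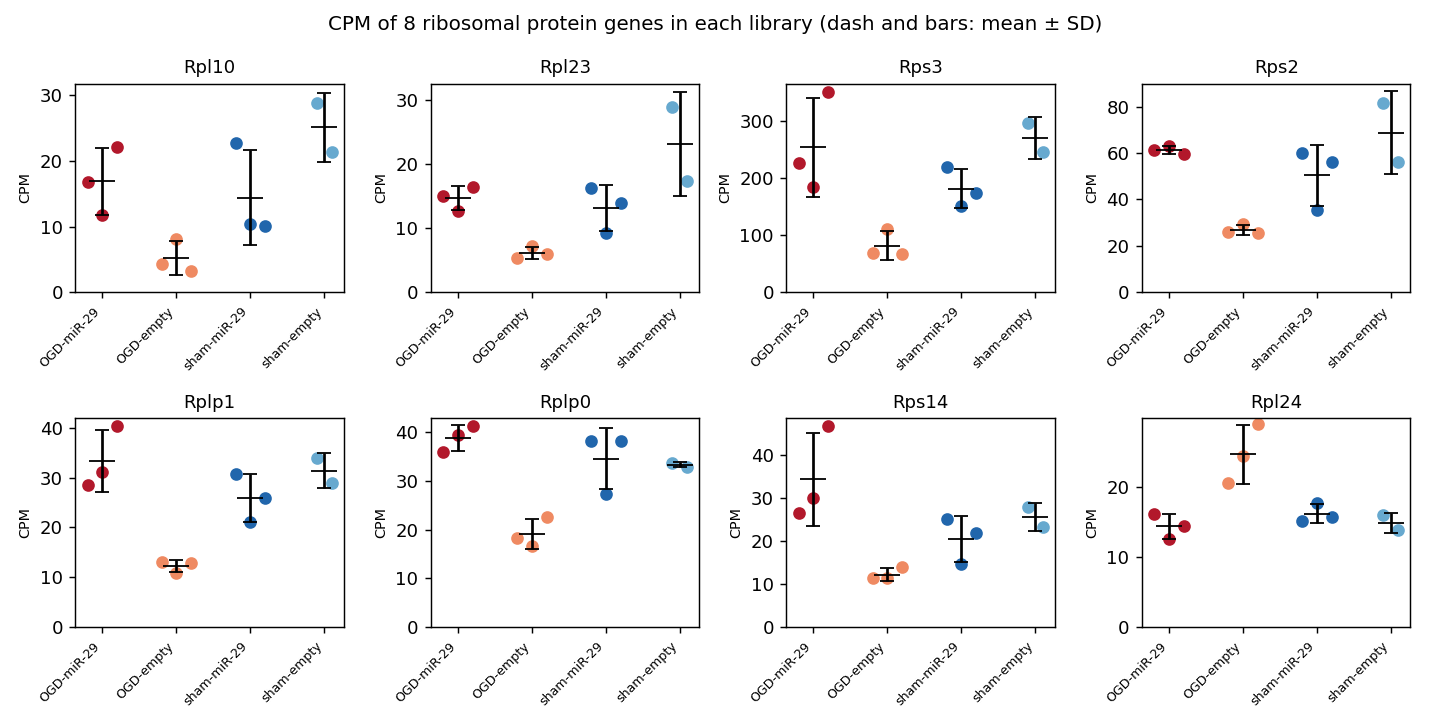
CPM (y axis, from 0) of 8 genes in each library by group, with the mean and SD as dash and bars (n = 3, and n = 2 in sham-empty). In all panels but that of Rpl24 the OGD-empty libraries are below the OGD-miR-29 and sham-empty libraries; the OGD-empty libraries of Rpl24 run from 20.5 to 28.9 CPM, above the rest.

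With miR-29, no change of a ribosomal protein gene with OGD passed the test. In OGD-miR-29 against sham-miR-29 cultures 0 of the 63 genes were called by edgeR (0.0165% of all genes were called, all of them higher), as by DESeq2 and limma-voom. At an unadjusted p under 0.05 there were 11 of the 63 genes by edgeR, 6 by DESeq2 and 10 by limma-voom, among 1111 of all genes by edgeR. The median log2 fold change was 0.28 and 54 of 63 values were above 0. The median was 0.13 without sham-miR-29 replicate 2 and 0.42 without sham-miR-29 replicate 3. For 12 genes every OGD-miR-29 library was above every sham-miR-29 library, where the background was 8.19%, and for 0 genes were they all below, where it was 8.69%. Values near 0 were those of Rpl15 (0.02 ± 0.22) and Rplp0 (0.16 ± 0.20), while Rpl7 had 0.88 ± 0.26 and Rps14 0.72 ± 0.24, neither called (edgeR adjusted p = 0.427 for Rpl7 and 0.452 for Rps14). Rpl10 had 0.24 ± 0.33, Rpl5 0.22 ± 0.21, Rpl13a 0.54 ± 0.22 and Rps19 -0.15 ± 0.38. The data bound these changes only to within about 2 SE on either side.

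In sham cultures the virus made no change that passed the test either. In sham-miR-29 against sham-empty cultures 0 of the 63 genes were called (background 0.0%) by edgeR, DESeq2 or limma-voom, and at an unadjusted p under 0.05 there were 5, 4 and 8 of them, among 405 of all genes by edgeR. The median log2 fold change was -0.18, with 23 values above 0. For 17 genes every sham-miR-29 library was below both sham-empty libraries and for 1 gene above, where the background was 11.9% lower and 10.6% higher. Rpl7 had -0.83 ± 0.31, Rpl10 -0.80 ± 0.39, Rpl23 -0.76 ± 0.30 and Rps7 0.82 ± 0.41, with none called, and Rpl22 (-0.01 ± 0.31) was near 0. Among these 17 were 4 of the 5 genes with a miR-29 seed match in the 3′ UTR, Rps3 (-0.57 ± 0.28), Rps15a (-0.54 ± 0.28), Rps20 (-0.47 ± 0.30) and Rpl5 (-0.47 ± 0.26), and the fifth was Rpl22. No gene of the table was called in this comparison. The share of all genes with a seed match that were lower with no overlap was not computed. Sham-miR-29 replicate 2 had the lowest share of the sham libraries, and without it the median was -0.05. Without sham-empty replicate 1 the median was -0.06, and without sham-miR-29 replicate 3 it was -0.32. After OGD the 5 genes with a seed match were higher with miR-29 than with the empty virus, with no overlap (background 25.0%). Their log2 fold changes were 1.64 for Rps3 and 1.18 for Rpl22, both called. Those of Rps15a (0.53), Rps20 (0.52) and Rpl5 (0.35) were not called.

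The OGD effect itself differed between the viruses. The interaction, which is the OGD effect with miR-29 minus that with the empty virus, was above 0 for 62 of the 63 genes with a median of 1.12, against -0.03 over all genes. It was called for 19 genes, all higher (edgeR), where 8.38% of all genes were called, 4.72% higher and 3.66% lower. These were 12 large-subunit, 6 small-subunit and 1 stalk gene. Among the largest values were those of Rpl10 at 2.51 ± 0.54 (edgeR adjusted p = 0.0131), Rps3 at 2.21 ± 0.38 (edgeR adjusted p = 0.00663) and Rps4x at 2.14 ± 0.50 (edgeR adjusted p = 0.0164). Rpl23 had 2.04 ± 0.42, Rpl7 2.03 ± 0.41, Rps14 1.79 ± 0.39 and Rplp1 1.67 ± 0.34, all called. Rpl24, at -0.86 ± 0.36 (edgeR adjusted p = 0.121), was the 1 gene below 0. Without sham-empty replicate 1 or 2 the calls were 2 and 4, and without sham-miR-29 replicate 2 they were 12.

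The set was also described by what its genes share in sequence. RefSeq promoter sequence (GRCm38.p6) was matched for 45 of the 63 genes. A run of at least 8 letters C or T on the gene's strand, within 50 bases of the annotated start, was found in 37 of these 45 (82.2%), against 2519 of 7912 promoters of tested genes (31.8%), and the median longest run was 11 against 6 bases. The TOP motif of the mRNA is such a run at its first base. Shown are the windows of some of the called genes and of Rpl24, 100 bases each, with the longest run of C and T in capitals.
Rpl10 (chrX:74270766-74270865, plus strand): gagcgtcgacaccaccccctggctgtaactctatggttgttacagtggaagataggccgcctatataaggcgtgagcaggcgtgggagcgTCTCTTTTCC
Rpl23 (chr11:97782390-97782489, minus strand): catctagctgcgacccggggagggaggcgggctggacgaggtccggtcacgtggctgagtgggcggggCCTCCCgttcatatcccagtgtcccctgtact
Rpl27a (chr7:109519145-109519244, plus strand): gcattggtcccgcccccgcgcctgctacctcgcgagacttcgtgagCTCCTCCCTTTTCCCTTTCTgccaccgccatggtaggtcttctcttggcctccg
Rpl37 (chr15:5116563-5116662, plus strand): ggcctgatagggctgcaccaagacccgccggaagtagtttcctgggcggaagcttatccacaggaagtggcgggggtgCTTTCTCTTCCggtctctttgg
Rpl41 (chr10:128549119-128549218, minus strand): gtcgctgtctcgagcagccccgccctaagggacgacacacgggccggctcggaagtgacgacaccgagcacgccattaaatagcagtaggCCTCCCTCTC
Rps2 (chr17:24720013-24720112, plus strand): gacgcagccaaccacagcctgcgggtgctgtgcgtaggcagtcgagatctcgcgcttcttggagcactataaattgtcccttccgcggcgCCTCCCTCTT
Rps3 (chr7:99483660-99483759, minus strand): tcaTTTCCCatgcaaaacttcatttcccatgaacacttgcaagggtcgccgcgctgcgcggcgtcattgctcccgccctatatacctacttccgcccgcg
Rps4x (chrX:102189342-102189441, minus strand): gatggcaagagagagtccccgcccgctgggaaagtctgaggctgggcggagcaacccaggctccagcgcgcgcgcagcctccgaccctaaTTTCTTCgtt
Rpl24 (chr16:55966225-55966324, plus strand): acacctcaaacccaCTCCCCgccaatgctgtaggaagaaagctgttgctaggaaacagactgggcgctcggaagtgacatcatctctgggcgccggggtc
In Rpl10, Rpl41 and Rps2 the run reaches the end of the window. The runs of Rpl23, Rps3, Rps4x and Rpl24 are shorter than 8 bases, so genes called lower in OGD-empty cultures and Rpl24, which had a value above 0 there, are both among those without such a run. Over 300 bases and both strands, CCGGAAG (a core bound by ETS factors) was found in 18 of the 45 (40.0%) against 18.1% of all, CTTTCC in 21 (46.7%) against 26.0%, and TATAAA in 4 (8.89%) against 6.34%. Rpl7, Rpl17, Rpl29, Rpl30, Rpl32, Rplp1 and Rps14 were called with OGD in empty-virus cultures, and their windows are not shown here.

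The genes also share their length, and length moved with the groups. Of the 63 genes 56 were among the shortest 25% of genes, with a span up to 7359 nt. The median log2 deviation of the shortest 25% of all genes minus that of the longest 25%, each gene taken relative to its mean over the libraries, was 0.390, 0.546 and 0.572 in OGD-miR-29 libraries and -0.527, -1.21 and -0.561 in OGD-empty libraries. It was 0.268, -0.152 and 0.374 in sham-miR-29 libraries and 0.0897 and 0.250 in sham-empty libraries, so the 3 OGD-empty libraries had the lowest values. Of the 3652 tested genes under 10000 nt, 323 fell and 7 rose in OGD-empty against sham-empty cultures, with a median log2 fold change of -0.38, where the 60 ribosomal protein genes of that length had -0.88. In OGD-miR-29 against OGD-empty cultures the medians were 1.03 for these 60 and 0.52 for all genes under 10000 nt.

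**Figure D5:**
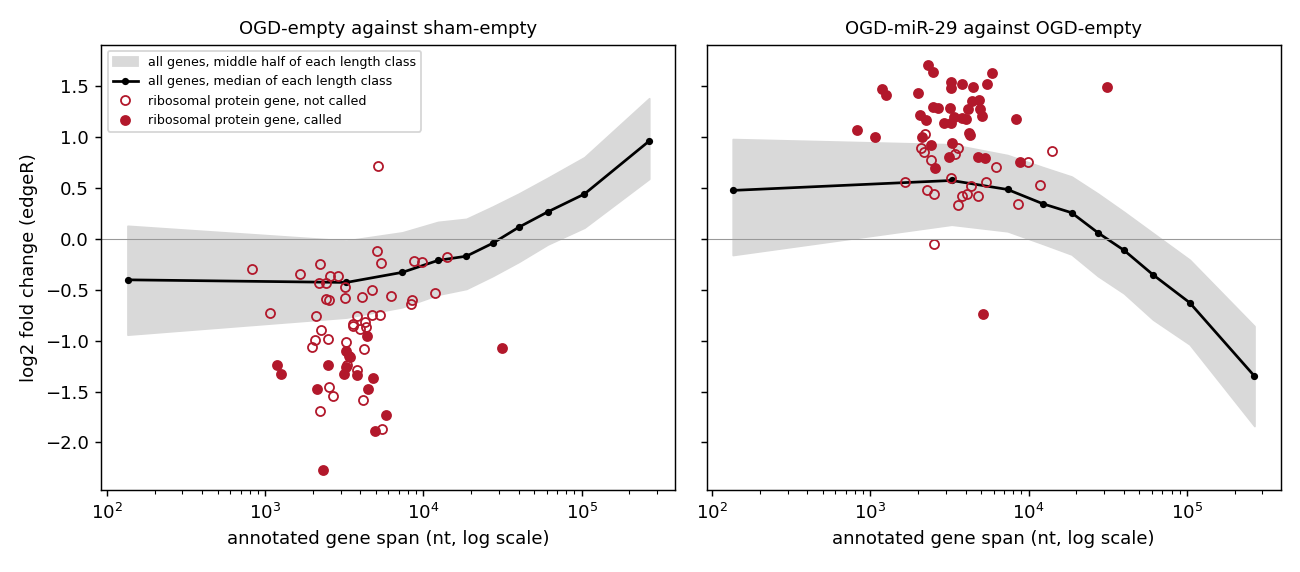
Log2 fold change (edgeR, y axis) against annotated gene span (nt, log x axis) for the 63 genes (red, filled if called) and for all genes in 10 length classes of equal size (black, medians; grey, the range from the lower to the upper quartile). In the class with a median span of 3259 nt, which holds 47 of the 63 genes, the median over all genes is -0.43 on the left and 0.58 on the right, and those of the 47 are -0.96 and 1.03.

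With each library's length trend removed and the replicate number as a block, 7 ribosomal protein genes fell and 1, Rpl24, rose in OGD-empty against sham-empty cultures, and the median was -0.48. Of all 11930 genes in that fit 4.17% were called, 2.3% lower and 1.87% higher. Rpl24 then had a log2 fold change of 1.10 (edgeR adjusted p = 0.0243). In OGD-miR-29 against OGD-empty cultures 19 rose and 1 fell, with a median of 0.53, where 23.6% of all genes were called, 11.5% higher and 12.1% lower. The interaction was called for 12 higher and 1 lower, Rpl24, at -1.35, where 7.73% of all genes were called, 3.96% higher and 3.76% lower. The direction of the medians was the same with and without the correction, and their size was smaller with it. What else moves with length in these libraries was not tested.

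The direction of the medians was the same in genes with and without a neighbour at 0.5 of their count. The 23 genes without one had a median log2 fold change of -0.96 with 5 called lower in OGD-empty against sham-empty cultures, and 1.14 with 13 called higher and 1 lower in OGD-miR-29 against OGD-empty cultures. The 40 with such a neighbour had medians of -0.80 and 0.97, with 11 lower and 27 higher. The 25 genes holding a snoRNA gave 9 lower and 18 higher calls in these comparisons, and the other 38 gave 7 lower, then 22 higher and 1 lower. These were 36.0% against 18.4% in the first comparison and 72.0% against 60.5% in the second. Of all genes tested, 5.09% and 37.1% were called. Differences between these parts of the set were not tested.

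Other genes of the translation machinery and other short housekeeping genes were set beside the 63. Of 4 ribosomal protein genes outside the symbol rule that were tested, 2 fell in OGD-empty against sham-empty cultures, Rpsa (log2 fold change -1.68) and Gnb2l1, the RACK1 gene, with a median of -0.91. In OGD-miR-29 against OGD-empty cultures 4 of 4 rose, Rpsa by 1.65 and Gnb2l1 by 1.28 on the log2 scale, with a median of 1.26. Of 16 other TOP genes, 2 fell in OGD-empty against sham-empty cultures, Gnb2l1 and the elongation factor gene Eef1b2 (-1.10), with a median of -0.46. In OGD-miR-29 against OGD-empty cultures 6 of them rose, among them Eef1b2 (1.29), Eef1a1 (0.87) and Eef2 (0.92), and Pabpc1, the poly(A)-binding protein gene, fell (-0.86). Mitochondrial ribosomal protein genes, whose products form another ribosome, had 3 of 66 lower with a median of -0.45 in the first comparison, and 16 higher and 3 lower with a median of 0.52 in the second. Proteasome subunit genes had 2 of 35 lower (median -0.43) and then 21 higher (median 0.78). In the second comparison 37.1% of all genes tested were called, 17.2% higher and 19.9% lower. The share called there in either direction was 43.75% of the 16 TOP genes and 28.8% of the 66 mitochondrial ribosomal protein genes. The proteasome share, 21 of 35, was above that of all genes. In the first comparison the shares were 12.5% of the TOP genes and 4.55% of the mitochondrial ribosomal protein genes, against 5.09% of all genes.

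Of 26 ribosome assembly and nucleolar factors measured, 0 were called in OGD-empty against sham-empty cultures, with a median of -0.08. In OGD-miR-29 against OGD-empty cultures 5 rose (Nop56, Pes1, Rrp9, Rrn3 and Eif6) and Ncl, which encodes nucleolin, fell by 1.24 on the log2 scale, with a median of 0.16. Of 25 genes of mTOR complexes and TOP mRNA control, 0 were called in the first comparison (median 0.07). In the second, Mlst8, Eif2ak4 and Mycn rose and Rptor, Rictor, Tsc1, Larp1 and Larp4 fell (median -0.14). The share called in the second comparison was 23.1% of the 26 genes and 32.0% of these 25, against 37.1% of all genes tested. In the first comparison 5.09% of all genes tested were called. Differences between these lists and the 63 genes were not tested.

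Markers of the cell types in the culture were measured beside these results. The summed level of 8 neuronal markers was 583 to 757 CPM in OGD-miR-29 and 1031 to 1285 CPM in OGD-empty libraries. In sham libraries it was 712 to 962 CPM with miR-29 and 709 to 861 CPM with the empty virus. This sum was highest where ribosomal protein RNA was lowest. Genes in the longest of the 10 length classes had a median log2 fold change of 0.96 in OGD-empty against sham-empty cultures. Their median was -1.35 in OGD-miR-29 against OGD-empty cultures. The part of gene length in the neuronal sum was not tested. Taken singly, 0 of the 8 neuronal markers were called in OGD-empty against sham-empty cultures, with 7 log2 fold changes above 0 and 1 below. In OGD-miR-29 against OGD-empty cultures 5 were called lower and 1 higher, with log2 fold changes from -1.82 to 0.87. Of all genes tested, 19.9% were called lower and 17.2% higher there. In the same comparison 1 of 3 microglial and 1 of 3 oligodendrocyte lineage markers were called higher, and 0 of 5 astrocyte markers were called. The sum of the 3 microglial markers measured of 6 was 32.1 to 36.1 CPM in OGD-miR-29, 18.8 to 28.0 in OGD-empty, 28.1 to 39.8 in sham-miR-29 and 30.7 to 40.8 CPM in sham-empty libraries. The sum of 5 of 6 astrocyte markers was 44.2 to 45.4 CPM in OGD-miR-29, 37.9 to 52.7 in OGD-empty, 41.9 to 51.6 in sham-miR-29 and 38.8 to 40.5 CPM in sham-empty libraries, so that the OGD-empty range covered the others. Of the oligodendrocyte lineage 3 of 6 markers were measured (9.62 to 14.2 CPM in OGD-miR-29, 8.58 to 9.73 in OGD-empty, 12.5 to 14.6 in sham-miR-29 and 11.9 to 12.2 CPM in sham-empty libraries), of dividing cells 1 of 4, and of endothelial cells 0 of 4. The dividing-cell marker Mki67 had 2.76 to 6.25 CPM in OGD-miR-29, 8.04 to 8.18 in OGD-empty, 3.86 to 6.45 in sham-miR-29 and 0.579 to 3.98 CPM in sham-empty libraries. It rose by 2.10 on the log2 scale in OGD-empty against sham-empty cultures (edgeR adjusted p = 0.0455), fell by 1.06 in OGD-miR-29 against OGD-empty cultures (edgeR adjusted p = 0.0249), and had an interaction of -2.49 (edgeR adjusted p = 0.0362). In sham-empty libraries the 3.98 CPM of Mki67 stood for 4 reads and the 0.579 CPM for fewer. Its rise and its interaction therefore rest on very few reads. The part of the cell types in the ribosomal protein results was not tested.

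Against sham-empty cultures, the OGD-miR-29 values were given by the authors' deposited table only. In that authors' deposited table, of the 63 genes, 26 had a log2 fold change below 0, the median was 0.10, and 0 had a false discovery rate under 0.05, with 3 at a p-value under 0.05, where 4.59% of all genes had one and 2 had a false discovery rate under 0.05. In the authors' deposited table for OGD-empty against sham-empty, 23 of the 63 had a p-value under 0.05, where 13.0% of all genes had one. Both tables share the sham-empty samples.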

How the data were processed

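Per the labels' protocols, total RNA was extracted with Trizol, treated with DNase, depleted of ribosomal RNA (Ribo-Zero) and made into TruSeq libraries. The authors deposited unnormalized read counts per gene symbol. The submitters' processing notes name STAR 2.5.0a, featureCounts 1.4.3-p1, edgeR and build mm10 with no role or order. The strand setting, annotation and counting region are not given in the sources used here. Per the file headers, the 2 deposited comparison tables give, for each gene, the log2 of the fold change and of the mean CPM, the score of a likelihood ratio test, its p-value and the false discovery rate. Of the columns, 0 were unmapped.

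The sham-empty replicate 3 column summed to 22859, against 1337564 to 6616920 in the other columns, its Spearman correlation with these was 0.0438 to 0.0978, and 92.5% of its values over 11953 annotated genes equalled the count of same-strand annotated genes in the gene and 10000 nt downstream. It was left out.

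edgeR 4.0.16 (R 4.3.3; TMM, filterByExpr, robust quasi-likelihood F test) was fitted to the 11 libraries with 4 group means and no block, on 12119 genes, with Benjamini-Hochberg adjustment over all of them. SE is the log2 fold change over the root of F. CPM are counts scaled by the TMM library size. The script was tested on simulated data. Alternatives used RLE scaling, no filter, DESeq2 1.42.0, limma-voom 3.58.1, no mitochondrial rows, the compared groups alone, a replicate block, removal of a length trend, and 1 library left out at a time. Replicates were cultures dissected on distinct days, per the design text; no label ties a replicate number to a day across groups. P-values measure the spread between these cultures, and counts limit their precision.

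The genes, lists and tests were chosen with earlier results of these data known. Named genes were the 3 called genes with the largest change and no overlap in each subunit, the 2 nearest 0, those called against the median, the paralogues with their partners, the stalk genes and Rpl5, Rpl10, Rps14, Rps19, Rpl13a and Rps27a. Others were named after their values were seen, and some that the rule takes are not reported here.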

Additional observations from a re-analysis of the deposited data

Results flagged for a closer look

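The OGD effect differed between the miR-29 and the empty virus for 19 of the 63 ribosomal protein genes by the interaction term of the edgeR fit, higher with miR-29 in all 19. On the log2 scale the difference was 2.51 for Rpl10, 2.21 for Rps3, 2.14 for Rps4x, 2.04 for Rpl23, 2.03 for Rpl7, 1.79 for Rps14 and 1.67 for Rplp1. Each of these genes had an OGD effect below 0 with the empty virus and above 0 with miR-29, and none of the effects with miR-29 was called. Groups here held 2 or 3 libraries, too few to look for single libraries far from the rest.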

How the results depend on the processing

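The counts in OGD-miR-29 against sham-miR-29 and in sham-miR-29 against sham-empty cultures were 0 under every alternative run. In OGD-empty against sham-empty cultures the 16 calls became 8 with the length trend removed and a replicate block, 6 with the length trend removed and no block (added after seeing the data), and 7 when the compared groups alone were fitted, where 38 of the 63 genes were tested. In OGD-miR-29 against OGD-empty cultures the 41 calls became 20 with the length trend removed, with or without the block. The 19 interaction calls became 10 with the length trend removed and no block. The cause of these shifts was not tested, except that fewer genes were tested with the compared groups alone; the interaction could not be fitted there. Leaving out 1 library gave 0 to 19, 29 to 44 and 2 to 20 calls in the 3 comparisons. The lowest came without sham-empty replicate 1 in the first and last, where a lone sham-empty library is assumed to vary like the other groups. With the replicate block alone the calls were 24, 43 and 25, among 1369, 4684 and 1861 of all genes, and all 33 calls of named genes held. Deviations of same-numbered libraries from the group means correlated at -0.0898 to 0.232 (median 0.0067), against -0.245 to 0.201 for other numbers, and 7 of 11 libraries correlated best with their own number, so the data do not settle the pairing. DESeq2 gave 11, 35 and 17 calls, and limma-voom 11, 42 and 19. At an unadjusted p under 0.05, DESeq2 had 30, 42 and 32 of the 63 genes, among 2358, 4739 and 2750 of all 12119. Limma-voom had 33, 50 and 39 of them, among 2656, 5701 and 3278. Calls over all genes are not reported here for the compared groups alone, the length trend without a block, or 1 library left out. No named call changed direction under any alternative; 23 of the 33 held with the block and no length trend, and 18 without sham-empty replicate 1. Low counts, with a median of 25 per gene and library, limit the genes of few counts such as Rps19 and Rpl27.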
